A study of Mus musculus with 10 samples.

Results

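Genes that cells switch on when they sense type I interferon were examined in the mouse cochlea, in 2 strains with and without exposure to loud noise. The genes were Isg15, Rsad2, Ifit1, Ifit2, Ifit3, Usp18, Irf7, Mx1 and Ifi27, and they were found by their gene symbol in the annotation of the array. These 9 genes, out of 8252 with a probe set of their own, were covered by 10 probe sets, since Irf7 had 2. A probe set is a group of short probes that together measure 1 transcript. RNA of the membranous labyrinth, the soft tissue of the inner ear, was hybridised to 10 one-colour arrays, and each array carried RNA pooled from 8 female mice aged 10 weeks. Noise-exposed B6.CAST mice filled 2 arrays, B6.CAST controls 2, noise-exposed 129X1/SvJ mice 3 and 129X1/SvJ controls 3. Noise was an octave band at 10 kHz and 105 dB SPL lasting 1 h, and tissue was taken 6 h later, while controls sat in the chamber for a sham exposure. B6.CAST is a strain of C57BL/6 background with a segment of CAST origin that carries the hearing-protective allele of Cdh23, and 129X1/SvJ is an inbred strain. A difference between them is a difference between whole strains, not the effect of 1 locus. Whether the probes match the sequences of both strains equally was not examined.

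Type I interferons are secreted proteins that bind a receptor made of Ifnar1 and Ifnar2. The receptor activates the kinases Jak1 and Tyk2, and a complex that contains Irf9 then binds the interferon-stimulated response element in the promoters of target genes. The targets include direct antiviral effectors, a transcription factor that amplifies interferon production (Irf7) and brakes on the pathway (Usp18). Many cells also keep these genes at a low basal level without infection.

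Letters that match a core of the response element were found in promoters of some members, so the stretch around each match is printed. Binding to these stretches was not measured. The search used the core of 2 GAAA repeats with any 2 bases between them, on both strands of windows from 250 bases before to 50 bases after the start of each gene, taken from RefSeq on GRCm38.p6. This core was found in 1131 of 32851 such windows of all genes (3.44%). Windows were given for 6 of the 9 genes, and 4 of these genes (Isg15, Rsad2, Ifit1 and Ifit3) held the core. The windows of Ifit2 and Irf7 did not hold these letters, which says nothing of elements elsewhere or of other spelling. Capitals mark the core, which reads as 2 TTTC repeats where it lies on the opposite strand. Each line reads 5′ to 3′ along the strand of its gene.
Isg15, chr4:156200855-156200916, minus strand: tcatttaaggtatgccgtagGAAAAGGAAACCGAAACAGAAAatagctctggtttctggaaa
Rsad2, chr12:26456543-26456592, minus strand: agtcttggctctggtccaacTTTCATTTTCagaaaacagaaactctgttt
Ifit1, chr19:34640765-34640833, plus strand: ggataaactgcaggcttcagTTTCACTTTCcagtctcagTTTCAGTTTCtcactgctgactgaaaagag
Ifit3, chr19:34583353-34583436, plus strand: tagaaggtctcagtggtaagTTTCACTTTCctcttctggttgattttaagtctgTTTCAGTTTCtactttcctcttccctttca

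The Isg15 window held 3 overlapping copies of the core, which began 78, 72 and 66 bases before the start. Rsad2 held 1 copy, at 120 bases. Ifit1 and Ifit3 held 2 copies each, at 104 and 85 bases in Ifit1 and at 156 and 122 bases in Ifit3, and the 10 letters of the 2 copies were the same in both genes. The longer form, in which CT follows the core, was found in 89 of the 32851 windows (0.271%), and it was present in Ifit1 and Ifit3 and not in the Isg15 or Rsad2 window.

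Before the results, some arrays need naming. Gapdh has control probe sets at both ends of its transcript, and a high 3′ over 5′ ratio goes with degraded RNA. This ratio was 6.94 on B6.CAST noise array 1, 29.2 on 129X1/SvJ control array 2 and between 0.790 and 1.40 elsewhere. Actb also has control probe sets at both ends. Its ratio was 5.50 on B6.CAST noise array 1 and 6.43 on 129X1/SvJ control array 2. On 129X1/SvJ noise array 3 the Actb ratio was 3.64, and it was between 1.61 and 2.63 on the remaining arrays. The first noise array of 129X1/SvJ correlated least with the remaining arrays (mean r = 0.910, where each of them had 0.943 to 0.955). Of 15 marker genes of the cochlea, the labelled tissue, 11 were on the array. Coch, the abundant matrix protein cochlin, had a median signal of 15369.5. All 11 genes were above the low-signal limit, which leaves out only the lowest 30% of probe sets. By mean log2 signal, their brightest probe sets lay between percentile 36.8 (Tecta) and 99.8 (Coch) of all probe sets. Their summed signal was 54241.6 to 58171.7 on noise arrays of B6.CAST and 58981.8 to 61266 on controls, against 38635.8 to 43918.5 on noise arrays of 129X1/SvJ and 44030 to 50696.7 on controls, so it was higher in B6.CAST without overlap, as described for several members below. In the mean strain gap 7 of the 11 were positive, with a median of 0.04 on the log2 scale, and Dct, a pigment cell enzyme, passed as higher. The part of this difference in the members' strain gap was not tested.

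Between the strains 4 members passed as higher in B6.CAST in the mean over conditions, where 2.08% of all probe sets did. No member passed for noise in the mean over strains, where 0.414% of all probe sets passed as higher and 0.460% in either direction. The estimated mean strain gap exceeded the noise effect for 9 of 10 probe sets, and that difference passed its own test for Ifi27 alone. Averaged over noise-exposed and control mice, Ifi27, Isg15, Rsad2 and Usp18 were higher in B6.CAST by 1.56-fold to 2.62-fold, and the estimate was positive for all 10 probe sets. Differences were fitted with limma on log2(signal + 16) after quantile normalization, with p-values adjusted by the Benjamini-Hochberg method over 8695 probe sets and called under 0.05. In bulk tissue, more cells of a type and more RNA per cell cannot be told apart.

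Isg15 encodes a ubiquitin-like protein that is joined to other proteins and is also secreted. Its signal was 924.4 and 758.8 on the noise arrays of B6.CAST and 642.6 and 704.1 on its control arrays. In 129X1/SvJ it was 446.2, 408.9 and 514.8 on noise arrays and 372, 325.5 and 307.8 on control arrays. Each B6.CAST array was above each 129X1/SvJ array, and within each strain the noise arrays were above the controls. The mean strain gap was 0.92 ± 0.13 on the log2 scale (SE of the limma fit, 4 and 6 arrays; adjusted p = 0.00220), a 1.89-fold difference. It was 0.87 ± 0.18 in noise-exposed mice (adjusted p = 0.0413) and 0.96 ± 0.18 in control mice (adjusted p = 0.0387). The call in noise-exposed mice was lost when any of the 10 arrays was left out, and the call in control mice was lost in 8 of 10 such fits, those without any array but the first or the third noise array of 129X1/SvJ, with adjusted p up to 0.395 and 0.270. That of the mean gap held in all 10.

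Rsad2 encodes viperin, an enzyme of the endoplasmic reticulum that makes a chain-terminating nucleotide. Its signal was 340.7 and 258.7 on noise arrays of B6.CAST and 233.8 and 190.4 on its controls, against 228.2, 98.8 and 117.4 on noise arrays of 129X1/SvJ and 56.7, 53.1 and 47.7 on controls of that strain. The controls of 129X1/SvJ were the lowest and close to each other, and the first noise array of that strain, the array that stood apart, lay among the B6.CAST controls. The control gap was 1.69 ± 0.32 (SE, 2 and 3 arrays; adjusted p = 0.0385 in limma), a 3.22-fold difference and the largest of the members in control mice. In noise-exposed mice it was 1.10 ± 0.32 (adjusted p = 0.164), where it passed at 1.39 with 129X1/SvJ noise array 1 left out (adjusted p = 0.0461), and the mean gap was 1.39 ± 0.23 (adjusted p = 0.00517). Leaving out any 1 of the 5 control arrays ended the call in control mice, with differences of 1.57 to 1.75 and adjusted p of 0.0788 to 0.285.

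Usp18 removes Isg15 from proteins and shields the interferon receptor from further signalling. Its signal was 510.6 and 362.6 on noise arrays of B6.CAST and 248.3 and 386.1 on controls, against 98.8, 189.6 and 184.5 on noise arrays of 129X1/SvJ and 122.8, 191 and 113.4 on controls. The strains did not overlap, and the noise and control arrays overlapped within each strain. The mean gap was 1.29 ± 0.28 (SE, 4 and 6 arrays; adjusted p = 0.0285 in limma). This call was lost without either noise array of B6.CAST, without its second control array, or without the first or the third control array of 129X1/SvJ, with adjusted p of 0.0638 to 0.138 and differences of 1.11 to 1.43. It was also lost without the filter on low signals (adjusted p = 0.0547).

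Ifi27 encodes a small hydrophobic interferon-induced protein. Its signal was 6979.2 and 7382.1 on noise arrays of B6.CAST and 6440.1 and 7569 on controls, against 3831.9, 4488.5 and 4327.1 on noise arrays of 129X1/SvJ and 4362.3, 4687.4 and 4936.4 on controls. The strains were apart, and noise arrays lay among or below the controls. The mean gap, 0.64 ± 0.08 (SE, 4 and 6 arrays; adjusted p = 0.00142 in limma), was the smallest of the 4 called and had the smallest error. It was 0.72 ± 0.12 in noise-exposed mice (adjusted p = 0.0133) and 0.56 ± 0.12 in control mice (adjusted p = 0.0569), which passed with 129X1/SvJ noise array 1 left out (adjusted p = 0.0325). Leaving out B6.CAST noise array 1 ended the call in noise-exposed mice (adjusted p = 0.0945), and so did leaving out noise array 2 (adjusted p = 0.171).

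The 3 Ifit genes encode proteins built of tetratricopeptide repeats that bind viral RNA or each other, and they lie near each other on chromosome 19. Their values had different patterns, and the differences between the genes were not tested. Ifit3 was 1581.6 and 1263.3 on noise arrays of B6.CAST and 981.6 and 919.7 on controls, against 263.8, 459.7 and 1164.4 on noise arrays of 129X1/SvJ and 468.7, 541.1 and 400.9 on controls. The noise arrays of 129X1/SvJ included both the lowest and the highest value of that strain. The mean gap of Ifit3 was 1.22 ± 0.32 (SE, 4 and 6 arrays; adjusted p = 0.0679 in limma), and without the third noise array of 129X1/SvJ it was 1.51 and passed (adjusted p = 0.00183). The same omission made the gap of Ifit3 in noise-exposed mice pass at 2.02 (adjusted p = 0.00752).

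Ifit1 was 1359.3 and 686.5 on noise arrays of B6.CAST and 491.2 and 609.7 on controls, against 491.7, 382.4 and 740 on noise arrays of 129X1/SvJ and 351.9, 310.4 and 248.6 on controls. Each strain's noise arrays were above its controls, and the B6.CAST controls lay among the 129X1/SvJ noise arrays. The mean gap was 0.86 ± 0.23 (SE; adjusted p = 0.0675 in limma) and passed without the second noise array of B6.CAST (1.10, adjusted p = 0.0351) or without the third noise array of 129X1/SvJ (0.97, adjusted p = 0.0379).

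Ifit2 had 310.3 and 194.6 on noise arrays of B6.CAST and 123.4 and 128.7 on controls, against 161.4, 143.6 and 362.2 on noise arrays of 129X1/SvJ and 117, 158.9 and 156.8 on controls. Its B6.CAST controls lay within the range of the 129X1/SvJ controls, and its noise arrays overlapped between the strains. The mean gap was 0.09 with a 95% interval of -0.52 to 0.70, which leaves room for a gap in either direction. Ifit2 was also the single member with a negative control gap, -0.20 ± 0.39 (SE; adjusted p = 0.929 in limma). The Ifit genes are close paralogues, and how far their probes separate them was not examined.

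Irf7, the transcription factor that amplifies interferon production, was measured by 2 probe sets. On the first its signal was 288.7 and 219.5 on noise arrays of B6.CAST and 142.8 and 208.3 on controls, against 252.7, 92.1 and 165.6 on noise arrays of 129X1/SvJ and 82.4, 137.7 and 95.2 on controls. On the second, whose identifier carries a suffix for probes that may match related sequences, the 10 arrays ranged over 140.1 to 225.8. The mean gap was 0.65 ± 0.28 on the first and 0.31 ± 0.15 on the second (SE; adjusted p = 0.291 and 0.365 in limma), so the probe sets had the same direction and neither passed.

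Mx1, an antiviral GTPase in strains with an intact gene, is defective in most inbred strains, and RefSeq lists it as a transcribed pseudogene on the C57BL/6J genome. Its signal was 80.3 and 84.3 on noise arrays of B6.CAST and 30.6 and 50.9 on controls, against 24.3, 42.8 and 54.5 on noise arrays of 129X1/SvJ and 14.7, 35.3 and 28.4 on controls. The B6.CAST noise arrays were above all others. Its mean over the arrays corresponded to a signal of 40.9, just under the limit of 42.9 for testing, and the dimmest member that was tested, Rsad2, had 135. In a fit without that limit, the mean gap of Mx1 was 0.71 ± 0.29 (SE; adjusted p = 0.328 in limma).

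Taking the 10 probe sets as a group, the strain gap in control mice was positive for 9, with a median of 0.71 against -0.05 over all probe sets tested. Of the 9 probe sets tested, 2 passed as higher in B6.CAST (Rsad2 and Isg15), where 0.575% of all probe sets did and 0.920% passed in either direction. In noise-exposed mice the gap was positive for all 10, with a median of 0.88 against 0.02, and 2 passed (Ifi27 and Isg15), where 0.874% of all probe sets passed as higher and 1.45% in either direction. For the mean gap the median was 0.78 against -0.01 over all, and 4 passed, where 2.08% did as higher and 3.24% in either direction. The gap in control mice and that in noise-exposed mice compare different arrays, but share the normalization and the estimate of the spread. Their p-values are therefore not independent, and the mean gap combines both gaps. With the deposited scaling kept or with median scaling, the signs were the same for each of the 10 probe sets in these 3 comparisons.

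On the normalized scale, 6 of the 10 probe sets had every control array of B6.CAST above every control array of 129X1/SvJ, where 13.9% of all probe sets did. Noise arrays of the strains were apart in this direction for 7 of 10, where 13.2% were. For 4 of 10, Isg15, Rsad2, Usp18 and Ifi27, all 4 B6.CAST arrays were above all 6 of 129X1/SvJ, where 3.59% were. On the deposited scale these counts were 8, 7 and 3, and Rsad2 overlapped there, with the first noise array of 129X1/SvJ above a B6.CAST control.

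The noise effect is the difference between noise-exposed and control mice at 6 h after the exposure, and no other time was measured. In B6.CAST the difference was positive for all 10 probe sets, with a median of 0.49 against 0.01 over all probe sets, and 0 passed, where 0.0460% of all probe sets did. Of the 9 tested, 1 had an unadjusted p under 0.05, where 2.10% of all probe sets did, and it was Ifit1 at 0.80 ± 0.35 (SE, 2 and 2 arrays; adjusted p = 1.00 in limma). On the normalized scale both noise arrays were above both controls for 7 of 10, where 15.8% of all probe sets were. The 95% interval of Ifit1 was 0.03 to 1.56 and that of Isg15 was -0.14 to 0.75. Leaving out the first noise array of B6.CAST, that of the Gapdh ratio of 6.94, gave 0.30 for Ifit1. The same omission gave a median of 0.20 over the 9 probe sets tested, against 0.46 with all arrays.

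In 129X1/SvJ the noise effect was positive for 7 of 10 probe sets, with a median of 0.27 against -0.04 over all, and 0 passed, where 0.460% of all probe sets passed as higher and 0.506% in either direction. With the deposited scaling it was positive for 9 of 10, with Usp18 and the second Irf7 probe set then above 0, and median scaling, which moved the median of all probe sets to -0.11, left 7. An unadjusted p under 0.05 was found for 3 of the 9 tested, where 11.5% of all probe sets had one. These were Rsad2 at 1.04 ± 0.29 (SE, 3 and 3 arrays; adjusted p = 0.227 in limma), Ifit1 at 0.74 ± 0.29 (adjusted p = 0.393) and Isg15 at 0.40 ± 0.16 (adjusted p = 0.412). They were also the 3 members whose noise arrays were all above their control arrays, where 6.35% of all probe sets were. Rsad2 was at 0.77 with 129X1/SvJ noise array 1 left out, and Ifit1 at 0.50 with noise array 3 left out.

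The remaining members spread around 0 in 129X1/SvJ, and for Ifit3, Ifit2, Usp18 and the second Irf7 probe set the sign turned when 1 array was left out. Ifit3 was at 0.12 with a 95% interval of -0.78 to 1.02, and without the third noise array at -0.46. Ifit2 was at 0.30, and without that array at -0.13. The same omission moved the median of the 9 probe sets tested to -0.08, against 0.30 with all arrays. Leaving out single arrays gave -0.24 to 0.34 for Usp18 and -0.09 to 0.04 for the second Irf7 probe set. With all arrays Usp18 was at -0.05 and Ifi27 at -0.14, with 95% intervals of -0.83 to 0.73 and -0.38 to 0.09.

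**Figure D1:**
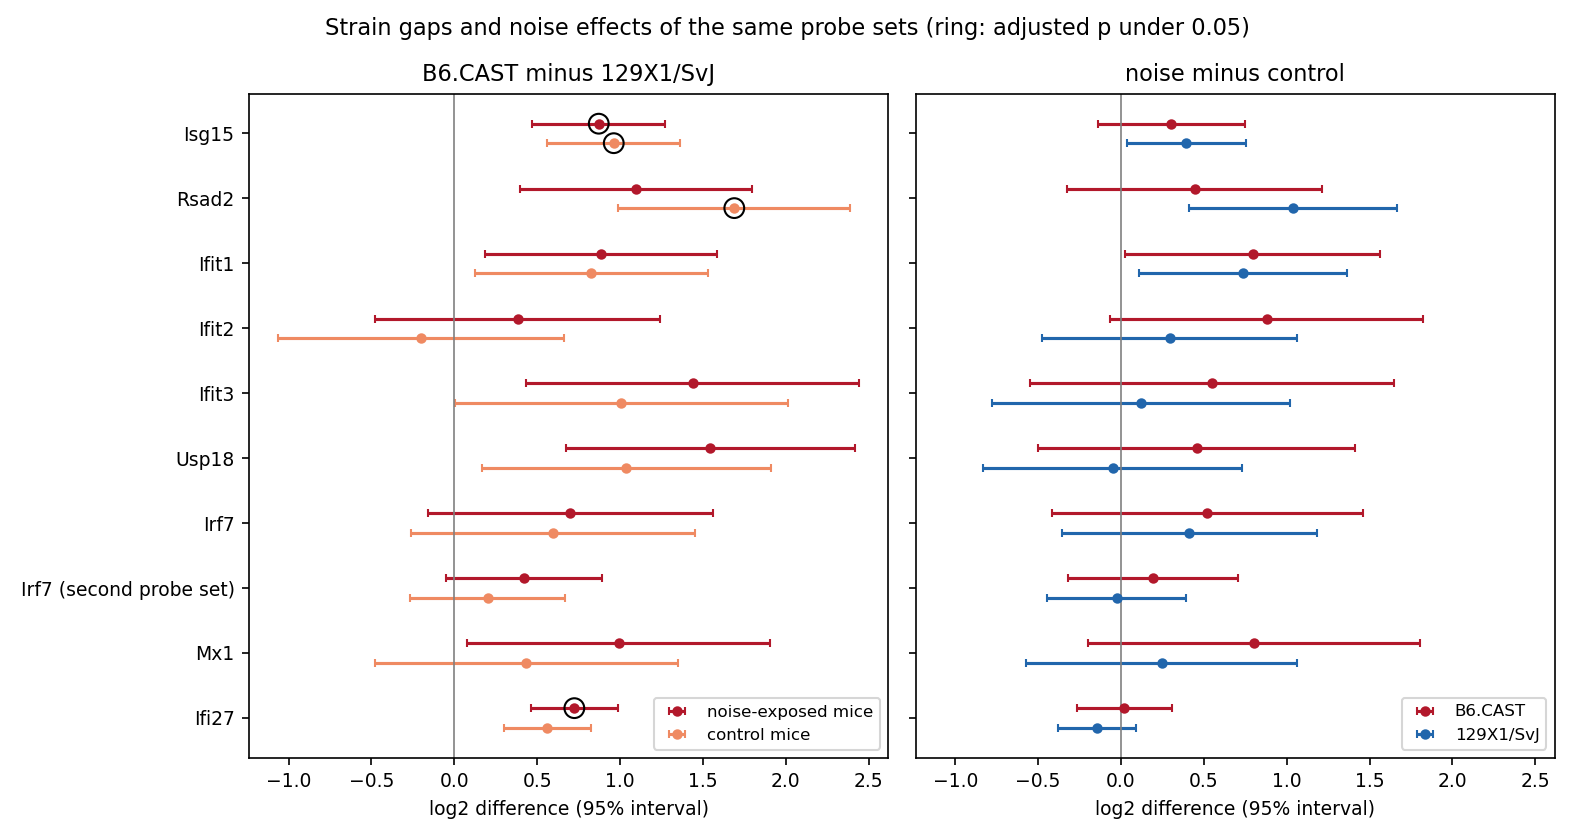
Log2 differences with 95% intervals from the limma fit for the 10 probe sets. The left panel gives the strain gap (B6.CAST minus 129X1/SvJ) in noise-exposed and control mice, the right panel the noise effect (noise minus control) in B6.CAST and 129X1/SvJ, and rings mark an adjusted p under 0.05. Rings appear for Isg15 in both gaps, Rsad2 in control mice and Ifi27 in noise-exposed mice, and for no noise effect.

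Averaged over strains, the noise effect was 0.77 ± 0.23 for Ifit1 and 0.74 ± 0.23 for Rsad2 (SE, 5 and 5 arrays; adjusted p = 0.342 and 0.367 in limma), and 0 of the 9 tested passed, where 0.414% of all probe sets passed as higher. An unadjusted p under 0.05 was found for 3 of them, where 7.63% of all probe sets had one. The difference between the noise effects of B6.CAST and 129X1/SvJ passed for no member and for no probe set of the array. That difference ranged over -0.59 for Rsad2 to 0.58 for Ifit2, and its intervals were wide, at -1.58 to 0.40 for Rsad2 and -0.63 to 1.80 for Ifit2. In limma, 0 members had an unadjusted p under 0.05 for it, where 2.97% of all probe sets had.

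Setting the gap directly against the noise effect is the same as setting unexposed B6.CAST against noise-exposed 129X1/SvJ, since the mean strain gap minus the mean noise effect equals that difference. It was positive for 9 of the 10 probe sets, with a median of 0.40 against 0.01 over all probe sets. Ifi27 passed at 0.70 ± 0.12 (SE, 2 and 3 arrays; adjusted p = 0.00919 in limma), 1 of the 9 tested, where 1.43% of all probe sets passed as higher and 2.77% in either direction. Without the second control array of B6.CAST, Ifi27 was at 0.60 and the call was lost (adjusted p = 0.115). Usp18 at 1.09 ± 0.40, Ifit3 at 0.89 ± 0.46, Rsad2 at 0.65 ± 0.32 and Isg15 at 0.57 ± 0.18 did not pass (adjusted p = 0.213, 0.383, 0.359 and 0.154 in limma). Ifit3 passed at 1.47 without the third noise array of 129X1/SvJ (adjusted p = 0.0238). Ifit1 was near 0, at 0.09 ± 0.32, and Ifit2 was at -0.50 ± 0.39. On the normalized scale 5 of the 10 probe sets had both control arrays of B6.CAST above all noise arrays of 129X1/SvJ, where 16.2% of all probe sets did. On the deposited scale 3 did, and Ifit2 lay apart the other way.

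Seen by array, the mean deviation of the 9 genes (the brighter probe set for Irf7) from their own averages was 0.93 and 0.55 log2 on the noise arrays of B6.CAST and 0.13 and 0.37 on its controls. It was -0.47, -0.30 and 0.22 on the noise arrays of 129X1/SvJ and -0.53, -0.29 and -0.60 on its controls. The highest array was thus the B6.CAST noise array with a Gapdh ratio of 6.94, and the third 129X1/SvJ noise array lay above a B6.CAST control. The second 129X1/SvJ control array, with a Gapdh ratio of 29.2, was the highest of its group. With both of these arrays left out, Ifi27 stayed called in the mean gap, Isg15 fell short at 0.83 (adjusted p = 0.0510 in limma), and Rsad2 at 1.29 and Usp18 at 1.25 did as well (adjusted p = 0.0610 and 0.108).

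**Figure D2:**
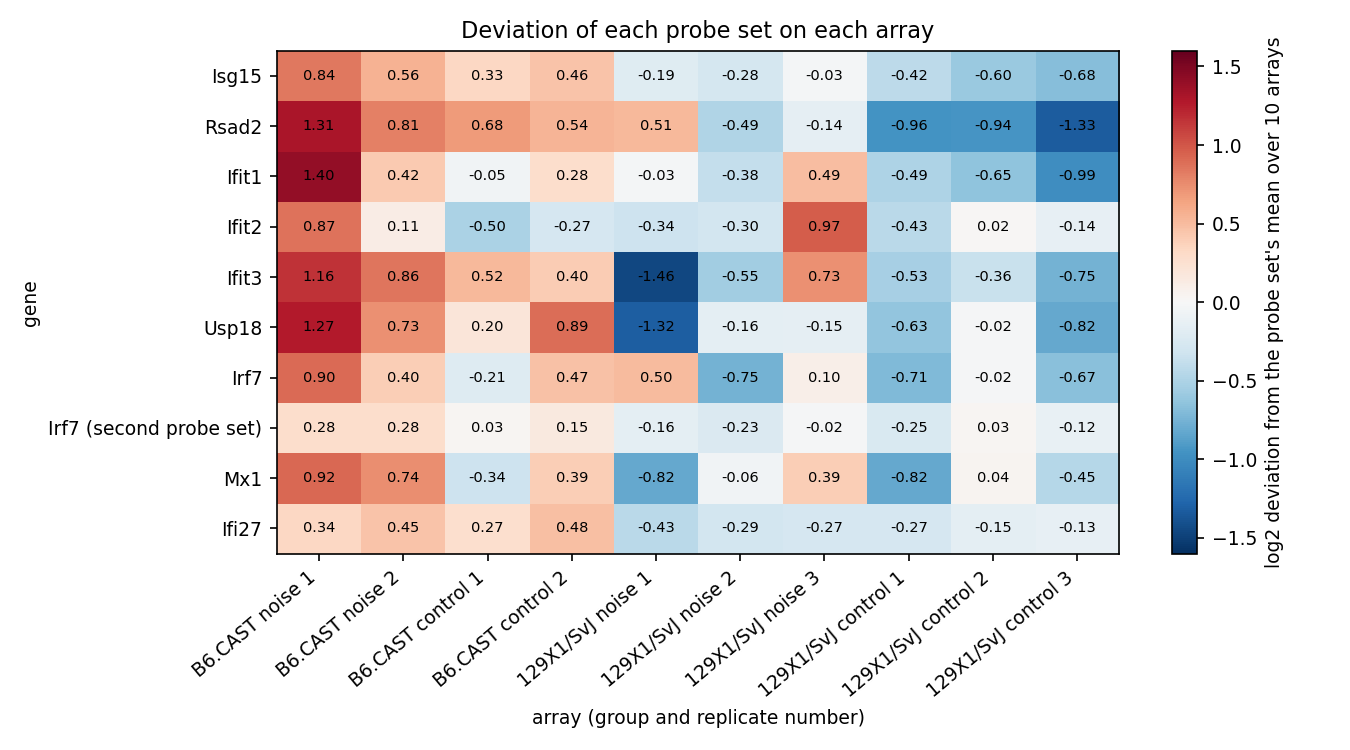
Log2 deviation of each probe set from its own mean over the 10 arrays (colour and printed value), with probe sets in rows and arrays in columns. The first noise array of B6.CAST is above the mean in every row, and the noise arrays of 129X1/SvJ differ among themselves, with Ifit3 at -1.46 on the first and 0.73 on the third.

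Within the noise group of 129X1/SvJ, 8 of the 9 genes were above the group mean on the third noise array and 8 of 9 were below it on the first, with Rsad2 the exception on both. The third noise array was above the group mean by 1.15 log2 in Ifit3, 0.86 in Ifit2, 0.56 in Mx1 and 0.46 in Ifit1, and by 0.14 in Isg15. The first was below it by 1.03 in Ifit3 (-1.03) and 0.78 in Usp18 (-0.78), while Rsad2 was above by 0.55 on that array.

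Among the other parts of the interferon pathway, 2 genes were called in the mean strain gap, where 3.24% of all probe sets were. Of 15 listed ligands and receptors, 10 were on the array and 5 were bright enough to test, and 0 passed in any comparison. Ifnb1 and 4 of the alpha interferon genes were under the limit. Ifnar1, the receptor chain, had 400.3 and 382 on noise arrays of B6.CAST and 370.3 and 474.5 on controls, against 436.1, 625.2 and 602.9 on noise arrays of 129X1/SvJ and 451.4, 502 and 459.1 on controls. Its mean gap was -0.30 ± 0.15 (SE; adjusted p = 0.385 in limma), on the other side of 0 from the members. Ifna9, a ligand measured by probes that may match related genes, was at 0.83 ± 0.28 (adjusted p = 0.168).

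Of the 6 signalling genes tested, 0 passed in any comparison. Irf9, the DNA-binding subunit of the complex, had the smallest p of these genes in the mean gap. Its signal was 1076 and 893.6 on noise arrays of B6.CAST and 865 and 804.5 on controls. In 129X1/SvJ it was 545.5, 718 and 738.6 on noise arrays and 494.4, 667.5 and 605.7 on controls. Each B6.CAST array was above each 129X1/SvJ array, where on the normalized scale 3.59% of all probe sets were. Its mean gap was 0.53 ± 0.14 (SE; adjusted p = 0.0590 in limma). Socs1, an inhibitor of the receptor's kinases, was at -0.45 ± 0.25 (adjusted p = 0.442).

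Of 6 sensors of nucleic acids on the array, 5 were tested and 0 passed in the mean gap. The largest gap was that of Ifih1, a sensor of double-stranded RNA, at 0.63 ± 0.21 (SE; adjusted p = 0.156 in limma). Ikbke, a kinase that activates Irf3 and Irf7, passed when unexposed B6.CAST was set against noise-exposed 129X1/SvJ, at 1.41 ± 0.30 (adjusted p = 0.0281). It was lost there without either control array of B6.CAST or the second control array of 129X1/SvJ, with adjusted p up to 0.192. The call was also lost without the filter on low signals (adjusted p = 0.0569), without both arrays of high Gapdh ratio (0.0839) and with only the arrays compared (0.149). Its control gap was 0.19 ± 0.30, and its noise effect in 129X1/SvJ was -1.22 ± 0.27 (adjusted p = 0.0966), the opposite sign to that of Rsad2.

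Among 25 other interferon targets tested, of 48 listed, the mean gap was positive for 18 and had a median of 0.26. Over all probe sets 47.9% were positive and the median was -0.01. Trim21, an antibody receptor and ubiquitin ligase, and Nmi, an interferon-inducible protein, passed as higher in B6.CAST, and 0 passed as lower. Of all probe sets, 2.08% passed as higher and 3.24% in either direction. Trim21 had 485.1 and 517.1 on noise arrays of B6.CAST and 389 and 390.3 on controls, against 223.6, 206.7 and 212.1 on noise arrays of 129X1/SvJ and 195.4, 190.1 and 183.3 on controls. Its gap was 1.10 ± 0.13 (SE; adjusted p = 0.000733 in limma). The other probe set of Trim21 gave -0.20 (adjusted p = 0.626), so its probe sets disagree. Nmi had 75.9 and 105.6 on noise arrays of B6.CAST and 157.1 and 110.3 on controls. In 129X1/SvJ it had 8.6, 23.3 and 44.3 on noise arrays and 36.5, 52.9 and 48.7 on controls. On average these lay under the limit of 42.9 for testing, so Nmi was tested through its B6.CAST signals. Under the other settings its mean gap ranged over 0.82 to 1.86. Nmi was at 1.37 ± 0.30 (adjusted p = 0.0277) and was lost when any B6.CAST array, the second noise array of 129X1/SvJ or the first or the third control array of that strain was left out, with adjusted p of 0.0559 to 0.122. It was also lost with a pseudocount of 1 (adjusted p = 0.0653) and when the 2 arrays with high Gapdh ratios were omitted (adjusted p = 0.108). Cmpk2, a nucleotide kinase on the same chromosome as Rsad2, was at 1.10 ± 0.32 (adjusted p = 0.102). No gene of this list passed for either noise effect.

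**Figure D3:**
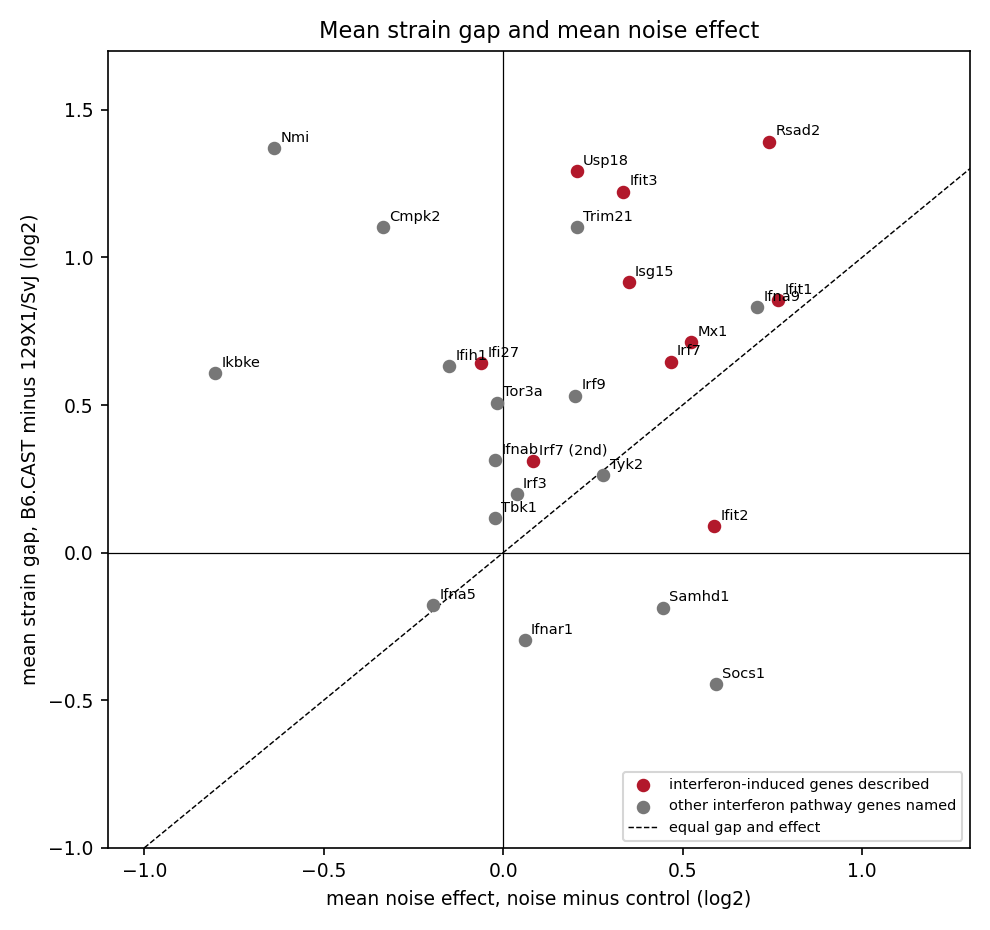
Mean strain gap (B6.CAST minus 129X1/SvJ, vertical, log2) against mean noise effect (noise minus control, horizontal, log2) for the 10 probe sets of the members (red) and 16 named genes of the other interferon lists (grey). Above the dashed line the gap is larger than the noise effect, as for each member but Ifit2, and the points left of 0 with a positive gap include Nmi, Cmpk2, Ikbke, Ifih1 and, close to 0, the member Ifi27.

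Markers of other cell types were measured on the same arrays. The summed signal of 9 tested macrophage markers was 6081.4 to 7125.4 on noise arrays of B6.CAST and 6617 to 8106.8 on controls, against 4932.2 to 6217 on noise arrays of 129X1/SvJ and 3201.4 to 5339.7 on controls. All 9 had a positive gap in control mice, with a median of 0.72. The 8 tested member genes, also taken by their brightest probe sets, had a median of 0.89 there. In noise-exposed mice 8 of 9 were positive with a median of 0.21, against 0.88 for the members, and in the mean gap 9 of 9 with a median of 0.37. Ctss, a lysosomal protease, passed in control mice and in the mean gap, while Adgre1, Aif1 and Itgam were under the limit. The sum for 9 neutrophil markers was 2338.2 to 2622.6 on noise arrays of B6.CAST and 5915.7 to 19297.8 on controls, against 12272.9 to 36301.5 on noise arrays of 129X1/SvJ and 3432.6 to 20999.8 on controls. Their median gap was -3.00 in noise-exposed mice (9 of 9 negative) and 0.15 in control mice (8 of 9 positive), and 0 passed in either or in the mean gap. For 4 tested lymphocyte markers the sums were 512 to 618.8 on noise arrays of B6.CAST and 613.9 to 999 on controls, against 707.2 to 1703.1 on noise arrays of 129X1/SvJ and 511.3 to 1011 on controls, with Cd3e, Cd3g and Cd8a under the limit. All 4 had a negative mean gap, with a median of -0.32, and 0 passed. For 8 endothelial markers they were 6667.1 to 7262.3 on noise arrays of B6.CAST and 6713 to 7195.7 on controls, against 7124.8 to 7474.3 on noise arrays of 129X1/SvJ and 7106.8 to 8207.8 on controls. The mean gap was positive for 4 and negative for 4, and Vwf, the von Willebrand factor, passed as lower in B6.CAST at -0.90. The part of these cell types in the strain gap of the members was not tested.

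Of 6457 genes outside the interferon lists, the 5 whose log2 values over the 10 arrays were most like the mean of the 8 tested members were Gbp3 (r = 0.966), Gm9706 (0.955), Gbp2 (0.955), Igtp (0.933) and Il18bp (0.919). The interferon lists are not complete, so a gene outside them may still respond to interferon. The probe set of Gm9706 carries the suffix for probes that may match related sequences. The mean strain gap was 1.01 on the log2 scale for Gbp3, 1.06 for Gm9706, 1.40 for Gbp2, 0.96 for Igtp and 0.98 for Il18bp. These 5 genes were chosen for their likeness to the members, and the arrays share their groups and normalization. Their values are therefore given as a description. Gbp2, a guanylate-binding protein, averaged 506 and 304 on noise and control arrays of B6.CAST, against 150 and 130 on those of 129X1/SvJ. Gbp3, of the same family, averaged 1172 and 973 on noise and control arrays of B6.CAST, against 612 and 475 on those of 129X1/SvJ. Igtp, an immunity-related GTPase, averaged 659 and 426 on noise and control arrays of B6.CAST, against 286 and 258 on those of 129X1/SvJ. In each of these 3 genes the order of the group means was that of Isg15, with B6.CAST noise highest and 129X1/SvJ control lowest.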

How the data were processed

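The authors deposited 1 linear intensity for each probe set and array. The arrays came scaled to a common level: the mean without the lowest and highest 2% of values was 500.268 to 500.304 on all arrays. Software and scaling target: not given in the sources used here. Of 12488 probe sets, 66 were controls, 10855 had 1 gene symbol in the platform annotation, 396 several and 1237 none, and symbols were updated through RefSeq (10839 found). From these intensities, log2(signal + 16) was computed and quantile normalized, control probe sets and the lowest 30% by mean were left out, and 4 group means were fitted to 10 arrays with limma 3.58.1 (R 4.3.3), with a variance trend and Benjamini-Hochberg adjustment. Fold changes are on this scale, which understates those of dim genes. The number of arrays limits the precision, and p-values measure the spread between pools. The labels spell the strain of control array 3 and noise array 3 of 129X1/SvJ slightly differently, and both were kept in it. Of the members, 9 of 10 probe sets were tested. There were 8 comparisons.

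The members and lists were chosen with earlier results of these data known. Named genes of the other interferon lists were those called in any comparison and, per list, up to 4 with the smallest p in the mean strain gap. Same-numbered arrays did not deviate together (correlations of -0.39 to 0.14 over 13 pairs), so numbers were not used as pairs. The fit was tested on simulated data with 8695 probe sets, where values were drawn independently, without deviations shared by an array. It recovered 71 of 100 changes of 1 on the log2 scale for the mean strain gap and 34 for the gap in control mice. For noise it recovered 39 in B6.CAST and 49 in 129X1/SvJ. Among all calls, which include changes of 2, false calls were 13 of 181 for the mean gap. They were 4 of 118 for the control gap, 12 of 141 for noise in B6.CAST and 10 of 151 for noise in 129X1/SvJ. Alternatives covered scaling, pseudocount, filter, variance trend, array weights, replicate block, each array left out, the Gapdh ratio, the arrays in the fit and the threshold.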

Additional observations from a re-analysis of the deposited data

How the results depend on the processing

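No member that was called turned its direction under any alternative, and noise effects, their mean and their difference had 0 members called throughout. The counts of called members were 2, 2 and 4 for the strain gap in control mice, in noise-exposed mice and in the mean, and 1 for the mean gap minus the mean noise effect. Leaving out each array in turn gave 0 to 3, 0 to 2, 3 to 6 and 0 to 2. Median scaling gave 1 in control mice and 1 in noise-exposed mice, and no filter on low values gave 1 in control mice and 3 in the mean gap, where Usp18 was lost. Without the variance trend, or with only the arrays of the groups compared, the count was 0 in noise-exposed mice and 0 for the gap minus the noise effect. With the replicate block the control gap had 0 and the gap in noise-exposed mice 1, and with the B6.CAST noise numbers crossed, a setting added after seeing the data, 0 and 0. The block left 3 calls in the mean gap, with Usp18 lost (adjusted p = 0.0887). It also ended the calls of Nmi in the mean gap (0.0515) and of Ikbke in the gap minus the noise effect (0.0641, and 0.0619 with the crossed numbers). Without both arrays of high Gapdh ratio it was 0, 0 and 1 for control, noise-exposed and mean gaps, and with that ratio as a covariate 0 and 1 for the first 2 of these. Apart from the omissions, which leave fewer arrays, the cause of these losses was not tested. The number of all probe sets called moved as well, from 80 to between 23 and 154 in control mice, from 126 to between 26 and 201 in noise-exposed mice, from 282 to between 137 and 460 in the mean gap, and from 44 to between 22 and 71 for noise in 129X1/SvJ. For noise in B6.CAST it was 4 and ranged over 0 to 7, for the mean noise effect 40 and 10 to 54, and for the gap minus the noise effect 241 and 64 to 405. Dim probe sets such as that of Mx1 are limited by signal over background, for which no detection calls were used here.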
